A study of Homo sapiens with 6 samples.

Results

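AP-1 and MYC transcription factors were examined in HT1080 cells, an established human fibrosarcoma line that carries a mutant NRAS gene, after treatment with interferon β (IFNβ). The genes were chosen by symbol and cover 10 of the 62710 genes in the table: the FOS family (FOS, FOSB, FOSL1, FOSL2), the JUN family (JUN, JUNB, JUND), BATF2, BATF3 and MYC. RNA was sequenced from 3 untreated libraries and 3 libraries of cells given 20 ng/mL human IFNβ for 24 h. The labels and the study's cell culture methods name human IFNβ for this line, while its section on sequencing names the mouse protein. The study's methods say in general that its cell experiments used independent biological replicates, and the labels of these libraries do not say whether the 3 of a group came from separate cultures. The p-values below measure the spread between these libraries, which may be partly technical. The fragments by which each library was divided ranged from 22848104 to 32915500. All 6 interferon-stimulated genes of a check list rose. The 7 mesenchymal markers lay between 2.25 and 426 FPKM (fragment number per unit of gene length and of library depth), and the summed level of 8 markers of epithelial, blood, endothelial and glial cells lay between 0.414 and 0.656 FPKM.

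AP-1 is a dimer of basic leucine zipper (bZIP) proteins that binds the sequence TGANTCA. JUN proteins pair with each other or with FOS proteins, whereas FOS proteins need a JUN partner. BATF proteins lack the transactivation domain of FOS and pair with JUN proteins as well, and BATF dimers can bind DNA together with interferon regulatory factors. MYC is a basic helix-loop-helix leucine zipper protein that binds the E-box CACGTG as a dimer with MAX and drives genes of ribosome production, nucleotide synthesis and the cell cycle. FOS, FOSB, JUN, JUNB and MYC are immediate early genes, whose RNAs rise within minutes of growth factor signals and decay quickly, while FOSL1 is a later target that is often high in cells with an active RAS pathway.

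After IFNβ, BATF2, JUND and JUNB were higher and JUN was lower, while FOSL1, FOSL2, FOS, BATF3 and MYC did not pass the test. Of the 9 genes with a mean of at least 0.1 FPKM, 3 rose and 1 fell at a limma adjusted p under 0.05. Of all 20716 genes tested, 15.2% were called higher and 17.5% lower. BATF2 was the 1 gene that also moved by 1 or more on the log2 scale, which 4.22% of all genes did. The median log2 fold change of the 9 genes was 0.08, beside 0.0002 over all genes tested. The groups did not overlap for 4 of the 9, and this was so for 46.6% of all genes tested. In RNA from bulk cells, fewer cells with a transcript and less of it per cell cannot be told apart.

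**Figure D1:**
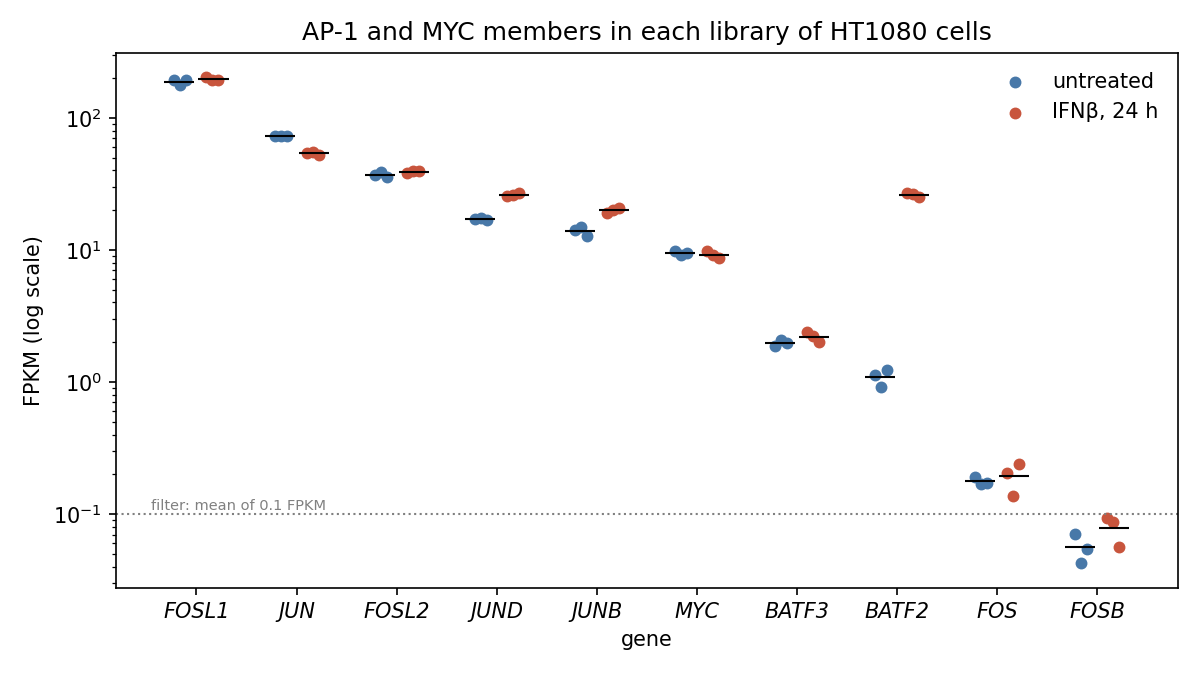
FPKM of the 10 AP-1 and MYC genes in each library on a log axis, with 3 untreated and 3 IFNβ points per gene and a bar at each group mean. BATF2 moves from between 0.910 and 1.24 FPKM to between 25.2 and 27.0 FPKM, JUN moves down, JUNB and JUND move up, and the points of the other 6 genes overlap between groups.

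The sequences before the transcription starts of JUND and JUNB are shown because these 2 JUN genes rose together. They are the 250 bases upstream of the start in RefSeq (GRCh38.p14), written on the strand of the gene. Capitals mark a match to the cyclic AMP response element TGACGTCA.
JUND promoter, chr19:18281623-18281872, - strand: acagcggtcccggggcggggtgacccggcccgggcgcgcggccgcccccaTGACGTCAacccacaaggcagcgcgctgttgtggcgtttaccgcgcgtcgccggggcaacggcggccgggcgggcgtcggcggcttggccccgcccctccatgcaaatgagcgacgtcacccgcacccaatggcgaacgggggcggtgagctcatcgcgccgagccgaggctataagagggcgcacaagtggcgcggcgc
JUNB promoter, chr19:12791236-12791485, + strand: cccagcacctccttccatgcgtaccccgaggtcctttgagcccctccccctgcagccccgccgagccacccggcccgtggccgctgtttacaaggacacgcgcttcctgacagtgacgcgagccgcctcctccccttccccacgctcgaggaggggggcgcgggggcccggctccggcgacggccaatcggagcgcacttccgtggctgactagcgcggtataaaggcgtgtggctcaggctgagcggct
Windows from 250 bases before to 50 after the start were searched on both strands for 5 motifs, namely TGANTCA (AP-1), TGACGTCA, CACGTG (E-box), TTCNNNGAA (the site of STAT dimers) and GAAANNGAA (the core of the interferon-stimulated response element). The window of JUND held TGACGTCA at position -200 from the start, a motif found in 1.85% of the 35116 promoters searched. The window of FOSL2 held TGACTCA at position 5, and TGANTCA was found in 7.71% of promoters. The E-box, the STAT site and the response element core, found in 7.26%, 7.66% and 8.11% of promoters, had no match in the windows of FOS, FOSB, FOSL2, JUN, JUNB, JUND and BATF2. The RefSeq start lies inside the gene as GENCODE release 29 gives it by 6768 bases for BATF2, 410 for FOSL2, 280 for JUN and 54 for FOS, so that the region before the farthest start was not searched for BATF2, FOSL2 and JUN and was searched in part for FOS. FOSL1, BATF3 and MYC were not searched.

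BATF2, a BATF family protein that is known as an interferon-induced gene in macrophages, showed the largest change of the 9 genes tested. BATF2 (ENSG00000168062) lies on the minus strand of chromosome 11 from 64987943 to 64997045 (GENCODE release 29, GRCh38) and has 3 exon blocks. Its level was 1.14, 0.910 and 1.24 FPKM in the untreated libraries and 27.0, 26.4 and 25.2 FPKM in the IFNβ-treated libraries. The lowest treated library was far above the highest untreated one. The mean rose from 1.10 ± 0.169 FPKM to 26.2 ± 0.911 FPKM (SD, n = 3 per group), a ratio of 23.9. The log2 fold change on the log2(FPKM + 0.1) scale, which understates the change of low genes, was 4.47 (SE 0.10, limma adjusted p = 8.63e-07). This was rank 47 of the 20716 genes tested when ordered from the largest rise. The values rest on 73 to 115 fragments in the untreated and 1858 to 2338 fragments in the treated libraries.

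BATF3, a relative known from dendritic cells, stood at 1.87, 2.07 and 1.97 FPKM in untreated cells and at 2.38, 2.21 and 2.02 FPKM after IFNβ. The 2 groups overlapped. The log2 fold change of BATF3 (ENSG00000123685, chromosome 1, 212686418 to 212699985, minus strand) was 0.15 (95% interval -0.04 to 0.34, limma adjusted p = 0.207). BATF2 stood below BATF3 in untreated cells, with a ratio of 0.558 ± 0.103, and above it after IFNβ, with a ratio of 11.9 ± 0.559 (SD, n = 3 per group). The founding gene of the family, BATF, was listed at 0 in all 6 libraries. Of the regulatory factors that bind DNA with BATF in lymphoid and myeloid cells, IRF8 was listed at 0 in all libraries and IRF4 had at most 2 fragments in a library, so neither was tested.

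The 3 JUN genes moved in different directions. JUN (ENSG00000177606), the founding AP-1 subunit, is a gene of 1 exon on the minus strand of chromosome 1 from 58780788 to 58784327. It had 72.5, 72.6 and 73.1 FPKM in the untreated libraries and 53.9, 55.1 and 52.3 FPKM after IFNβ. All treated libraries were lower than all untreated ones, and the untreated libraries were within 1 FPKM of each other. JUN fell from 72.8 ± 0.330 to 53.8 ± 1.42 FPKM (SD, n = 3 per group), with a ratio of 0.739 and a log2 fold change of -0.44 (SE 0.02, limma adjusted p = 3.78e-05).

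JUND, a JUN protein that is present in most resting cells and often slows proliferation, rose. JUND (ENSG00000130522) has 1 exon on the minus strand of chromosome 19 from 18279760 to 18281622. Its level was 17.2, 17.5 and 16.7 FPKM in untreated cells and 25.7, 26.0 and 26.8 FPKM after IFNβ. The groups did not overlap, and the spread within each was small beside the gap. The mean rose from 17.1 ± 0.398 to 26.2 ± 0.553 FPKM (SD, n = 3 per group), with a ratio of 1.53 and a log2 fold change of 0.61 (SE 0.03, limma adjusted p = 1.84e-05).

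JUNB, a JUN protein with weaker transactivation that can oppose JUN at some promoters, rose as well. JUNB (ENSG00000171223) has 1 exon on the plus strand of chromosome 19 from 12791496 to 12793315. Its level was 14.2, 15.0 and 12.7 FPKM in the untreated libraries and 19.1, 20.0 and 20.7 FPKM in the treated libraries. The groups did not overlap, but the untreated libraries spread more than those of JUN or JUND. The mean rose from 14.0 ± 1.14 to 20.0 ± 0.809 FPKM (SD, n = 3 per group), with a ratio of 1.43 and a log2 fold change of 0.51 (SE 0.06, limma adjusted p = 0.00138). Its exon overlaps HOOK2 on the other strand by 259 bases, and the sources do not say whether counting used strand. HOOK2 stood at 1.39 ± 0.0291 and 1.61 ± 0.0383 FPKM (SD, n = 3 per group), a log2 fold change of 0.19 (limma adjusted p = 0.0658).

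Summed over the family, the JUN genes had 104.0, 105.1 and 102.6 FPKM in untreated cells and 98.8, 101.2 and 99.8 FPKM after IFNβ. The treated libraries were all slightly below the untreated ones in this sum, and the members' shares differed more. The share of JUN was 69.7%, 69.1% and 71.3% in untreated cells and 54.6%, 54.5% and 52.4% after IFNβ, with no overlap. The mean share of JUND was 16.5% ± 0.187 before and 26.2% ± 0.564 after IFNβ, and that of JUNB was 13.4% ± 0.939 and 20.0% ± 0.729 (SD, n = 3 per group). JUNB and JUND together came to 0.428 ± 0.0228 of the JUN level in untreated cells and to 0.859 ± 0.0437 after IFNβ (SD, n = 3 per group). These shares are levels of RNA per gene length, and no test was made of them.

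**Figure D2:**
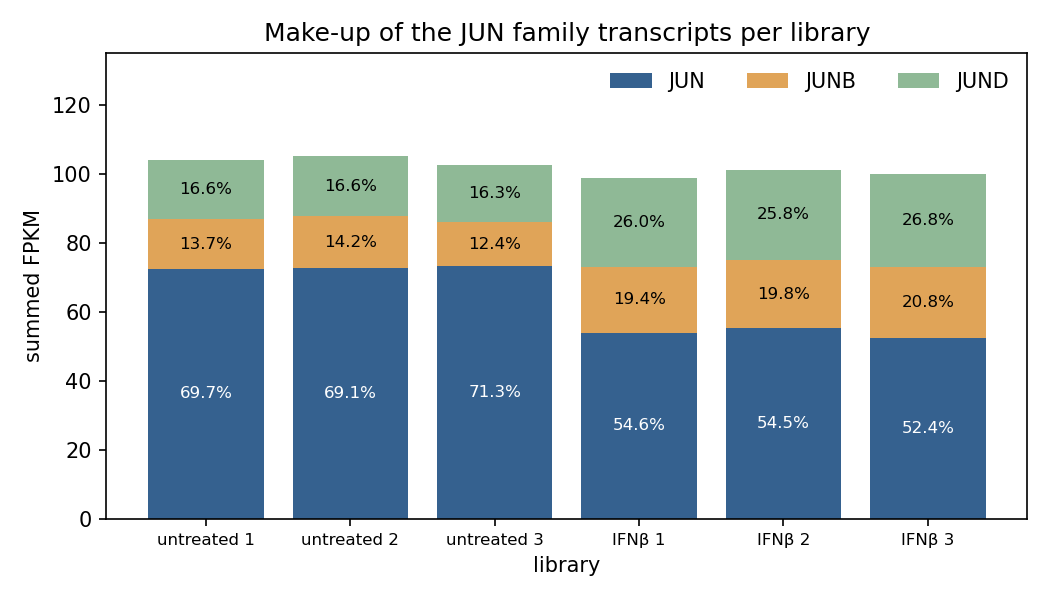
FPKM of JUN, JUNB and JUND stacked for each of the 6 libraries, with the percentage of the sum written in each segment. The height changes little, between 98.8 and 105.1 FPKM, while JUN takes 69.1% to 71.3% of the sum in the untreated and 52.4% to 54.6% in the IFNβ-treated libraries.

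In the FOS family, FOSL1 and FOSL2 made up nearly all of the RNA and neither passed the test. FOSL1 (FRA-1, ENSG00000175592, chromosome 11, 65892049 to 65900573, minus strand), an AP-1 subunit linked to invasion in mesenchymal tumors, had 195, 176 and 193 FPKM in untreated cells and 202, 194 and 193 FPKM after IFNβ. Untreated replicate 2 was the lowest, and the other libraries lay close together across groups. The log2 fold change was 0.07 (95% interval -0.04 to 0.17, limma adjusted p = 0.312). Each library had at least 8399 fragments of FOSL1. FOSL1 was also the bZIP gene with the highest mean level of the 52 listed, at 192 FPKM.

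FOSL2 (FRA-2, ENSG00000075426), on the plus strand of chromosome 2 from 28392448 to 28417312, stood at 36.9, 38.8 and 35.4 FPKM in untreated cells and at 38.2, 39.8 and 39.2 FPKM after IFNβ. The highest untreated library was within the treated range. Its log2 fold change was 0.08 (95% interval -0.01 to 0.17, limma adjusted p = 0.162). Without untreated replicate 2, it was 0.11 with an adjusted p of 0.0460, and with all libraries it passed with limma-voom on the recovered fragments (adjusted p = 0.0306), so whether FOSL2 passes depends on that library and on the method. The share of FOSL1 in the family's summed FPKM was 83.4% ± 1.39 in untreated and 83.3% ± 0.628 in treated libraries, and that of FOSL2 was 16.5% ± 1.39 and 16.6% ± 0.636 (SD, n = 3 per group).

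FOS and FOSB, the classical immediate early members, were near the limit of detection in both groups. FOS (ENSG00000170345, chromosome 14, 75278774 to 75282230, plus strand) had 14, 16 and 18 fragments in the untreated and 20, 11 and 22 fragments in the treated libraries, or 0.178 ± 0.0127 and 0.194 ± 0.0512 FPKM (SD, n = 3 per group). The groups overlapped, and the log2 fold change of 0.07 had a wide 95% interval from -0.50 to 0.63 (limma adjusted p = 0.870). FOSB (ENSG00000125740, chromosome 19, 45467995 to 45475179, plus strand) had 9, 7 and 10 fragments in the untreated and 16, 12 and 9 fragments in the treated libraries. Its mean was under the minimum for the test, and no difference was detectable at this depth.

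MYC (ENSG00000136997) had 9.87, 9.19 and 9.41 FPKM in the untreated libraries and 9.76, 9.19 and 8.66 FPKM after IFNβ. The groups overlapped, with means of 9.49 ± 0.350 and 9.20 ± 0.549 FPKM (SD, n = 3 per group). The log2 fold change was -0.04 (SE 0.05, 95% interval -0.17 to 0.08, limma adjusted p = 0.567). Each library held at least 1378 fragments of MYC. A change as large as that of JUN lies outside the interval. The gene length behind the FPKM of MYC was 6109 bases, against 3001 exon bases in GENCODE release 29. With the same fragments divided by the latter length, its means would be 19.3 and 18.7 FPKM. Fragments outside those exons would not be counted under release 29, so its level and group ratio there are not known.

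**Figure D3:**
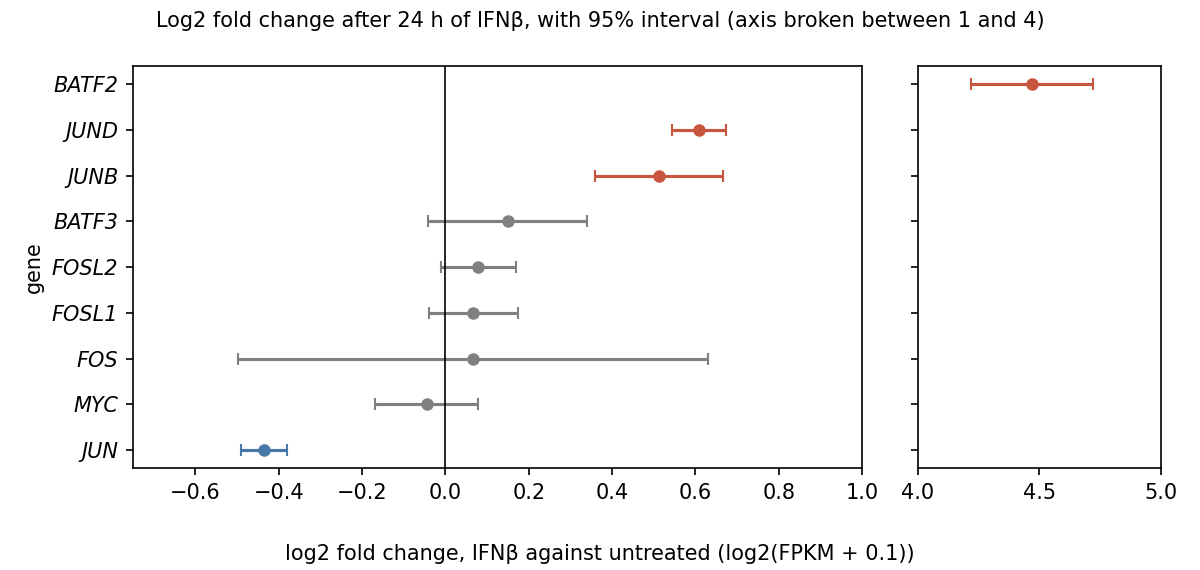
log2 fold change of IFNβ-treated over untreated libraries for the 9 genes tested, with the 95% interval from limma as bars and the axis broken between 1 and 4. The intervals of BATF2, JUND and JUNB lie above 0, that of JUN lies below 0, and those of BATF3, FOSL2, FOSL1, FOS and MYC include 0.

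The order of the levels in untreated cells was FOSL1, JUN, FOSL2, JUND, JUNB, MYC, BATF3, BATF2, FOS and FOSB. The ranges of neighbouring genes in this order did not overlap. After IFNβ, BATF2 moved up to the fourth place and its range overlapped that of JUND, at 25.2 to 27.0 FPKM for BATF2 and 25.7 to 26.8 FPKM for JUND. All other neighbours kept separate ranges. The place of MYC depends on its length. With the same fragments divided by release 29 lengths, 19.3 FPKM would put it above JUND in untreated cells, at 17.7 FPKM. After IFNβ, 18.7 FPKM would leave MYC below JUNB.

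Among 11995 other genes with a mean of at least 1 FPKM, those whose profile over the 6 libraries was most like that of BATF2 were EPSTI1, HLA-B and TRANK1. Their centred log2 values differed from those of BATF2 by a root mean square of 0.11, 0.15 and 0.17. HLA-B, a class I antigen-presenting molecule, went from a mean of 2.10 to 46.6 FPKM. EPSTI1, from 0.0326 to 2.89 FPKM, and TRANK1, from 0.898 to 20.5 FPKM, reached the mean of 1 FPKM only through the treated libraries. The fold of EPSTI1, and so its likeness to BATF2, depends on the pseudocount. The genes closest to JUN were SLC35E1, ASB1 and HOMER3, with root mean square differences of 0.013, 0.016 and 0.018. SLC35E1 went from a mean of 12.4 to 9.03 FPKM.

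Of the 8 other bZIP partners of AP-1 that were tested, 2 rose and 2 fell, and the list's median log2 fold change was 0.08. These shares of 25% each compare with 15.2% of all genes tested called higher and 17.5% called lower, and with 8 genes the difference is under 1 gene in each direction. ATF3, a stress-induced bZIP protein that pairs with JUN, rose from 1.15 ± 0.0850 to 2.70 ± 0.157 FPKM (SD, n = 3 per group), which is 1.17 on the log2 scale (limma adjusted p = 0.000126). MAFG, a small MAF protein, rose from 18.6 to 22.5 FPKM. CREB5 fell from 2.27 to 1.74 FPKM and JDP2, a repressor that pairs with JUN, fell from 2.20 to 1.77 FPKM. Neither of these falls passed without untreated replicate 2, and 1 of them passed without untreated replicate 1 or 3 or without IFNβ replicate 1 or 3.

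The kinases that signal to AP-1 and the factors at the FOS promoter were mostly lower after IFNβ. Of these 13 genes, 8 fell and 1 rose, with a median log2 fold change of -0.16. These shares, 61.5% and 7.69%, compare with 17.5% of all genes tested called lower and 15.2% called higher. With the filter at a mean of 1 FPKM, 9 of the 13 fell and 1 rose, beside 3710 and 2741 of 11996 genes. ELK3 and ELK1, which join serum response factor at the FOS promoter, fell from 41.4 ± 1.06 to 26.0 ± 0.442 FPKM and from 16.1 ± 0.377 to 11.7 ± 0.330 FPKM (SD, n = 3 per group). Their log2 fold changes were -0.67 (limma adjusted p = 9.19e-06) and -0.46 (limma adjusted p = 0.000113). MRTFA, a coactivator of serum response factor, rose from 5.33 to 6.44 FPKM (log2 fold change 0.27, limma adjusted p = 0.0037).

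Other immediate early genes were measured beside FOS, JUN and MYC. Of the 15 tested of 18 listed, 8 rose and 2 fell, with a median log2 fold change of 0.22. These shares, 53.3% and 13.3%, compare with 15.2% of all genes tested called higher and 17.5% called lower. With the filter at a mean of 1 FPKM, 8 of 11 rose and 2 fell, beside 2741 and 3710 of 11996 genes. KLF6, a zinc finger factor, rose from 58.5 ± 0.621 to 80.6 ± 0.981 FPKM and ZFP36, which promotes the decay of AU-rich mRNAs, rose from 5.15 ± 0.499 to 6.996 ± 0.404 FPKM (SD, n = 3 per group). DUSP1, a phosphatase of MAP kinases, fell from 6.14 to 4.87 FPKM and MCL1, an inhibitor of apoptosis, fell from 96.8 to 83.5 FPKM. Without IFNβ replicate 1 or replicate 3, 5 of these genes were called higher in place of 8.

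Genes known as AP-1 targets were split, with 4 of 12 higher and 5 lower and a median log2 fold change of -0.10. These shares, 33.3% and 41.7%, compare with 15.2% of all genes tested called higher and 17.5% called lower. With the filter at a mean of 1 FPKM, 3 of 11 rose and 6 fell, beside 2741 and 3710 of 11996 genes. Of the 3, MMP13 reached that mean only through the treated libraries. MMP13, a collagenase, had 13 to 15 fragments in the untreated and 850 to 1037 fragments in the treated libraries, and rose from 0.182 ± 0.0428 to 12.1 ± 0.598 FPKM (SD, n = 3 per group), which is 5.44 on the log2 scale (limma adjusted p = 6.24e-07). PLAU, the urokinase that activates plasminogen, fell from 218 ± 14.4 to 134 ± 7.79 FPKM (SD, n = 3 per group). Exons of PLAU overlap C10orf55 on the other strand by 916 bases. CXCL8, a chemokine for neutrophils, fell from 5.86 to 3.64 FPKM.

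Around MYC, MAX rose while MYC did not pass the test. MAX, the obligate partner of MYC, went from 10.6 ± 0.0534 to 13.3 ± 0.125 FPKM (SD, n = 3 per group), which is 0.33 on the log2 scale (limma adjusted p = 0.000101). In the network of MAX and MLX partners, 1 of 10 genes tested rose and 2 fell, with a median log2 fold change of -0.18. These shares, 10% and 20%, are near the 15.2% and 17.5% of all genes tested. The genes that fell were MXI1, a competitor of MYC for MAX, from 2.67 to 2.07 FPKM, and MLXIP, a glucose-sensing partner of MLX, from 6.96 to 5.93 FPKM. MYCN was listed at 0 in all libraries.

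Genes known to be activated by MYC were lower in 19 of 26 cases and higher in 2, with a median log2 fold change of -0.20. Of all genes tested, 17.5% were called lower and 15.2% higher. Calls were more frequent among genes of higher level. With the filter at a mean of 1 FPKM, 3710 of 11996 genes were called lower and 2741 higher, beside 19 and 2 of 25 in this list. ODC1, the rate-limiting enzyme of polyamine synthesis, fell from 244 ± 11.2 to 92.8 ± 1.99 FPKM (SD, n = 3 per group), with a ratio of 0.381 and a log2 fold change of -1.39 (limma adjusted p = 1.53e-06). E2F1, a factor of the G1 to S transition, fell from 20.4 to 14.9 FPKM (log2 fold change -0.45, limma adjusted p = 0.000911). The genes that rose were TERT, the catalytic subunit of telomerase, from 2.75 to 3.14 FPKM, and POLR1B, a subunit of RNA polymerase I, from 20.9 to 22.9 FPKM. TERT lost its call without untreated replicate 2 or 3 or without IFNβ replicate 1 or 3.

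Of the genes known to be repressed by MYC, 3 of 5 tested rose, with a median log2 fold change of 0.22. Of all genes tested, 15.2% were called higher and 17.5% lower. The values of all 5 were above 0, as were those of 10361 of the 20716 genes tested. The 2 that did not pass were at 0.006 and 0.150. With the filter at a mean of 1 FPKM, 4 of the 5 rose, beside 2741 of 11996 genes. GADD45A, a stress gene of growth arrest, rose from 40.8 ± 2.10 to 58.3 ± 0.988 FPKM and CDKN1B, the inhibitor p27 of cyclin-dependent kinases, rose from 2.43 ± 0.166 to 3.10 ± 0.158 FPKM (SD, n = 3 per group). CDKN2B was listed at 0 in all libraries. Genes that control the turnover of MYC and JUN proteins moved both ways, with 2 of 8 higher and 3 lower. These shares of a short list, 25% and 37.5%, compare with 15.2% and 17.5% of all genes tested. With the filter at a mean of 1 FPKM, 2 of 7 rose and 3 fell, beside 2741 and 3710 of 11996 genes. COP1, a ubiquitin ligase component that targets JUN, fell from 10.6 to 8.08 FPKM, and SKP2, an F-box protein that targets MYC, fell from 5.70 to 4.76 FPKM. USP28, which removes ubiquitin from MYC, rose from 7.41 to 8.48 FPKM. Whichever single library was left out, 1 of the 8 was called higher in place of 2.

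**Figure D4:**
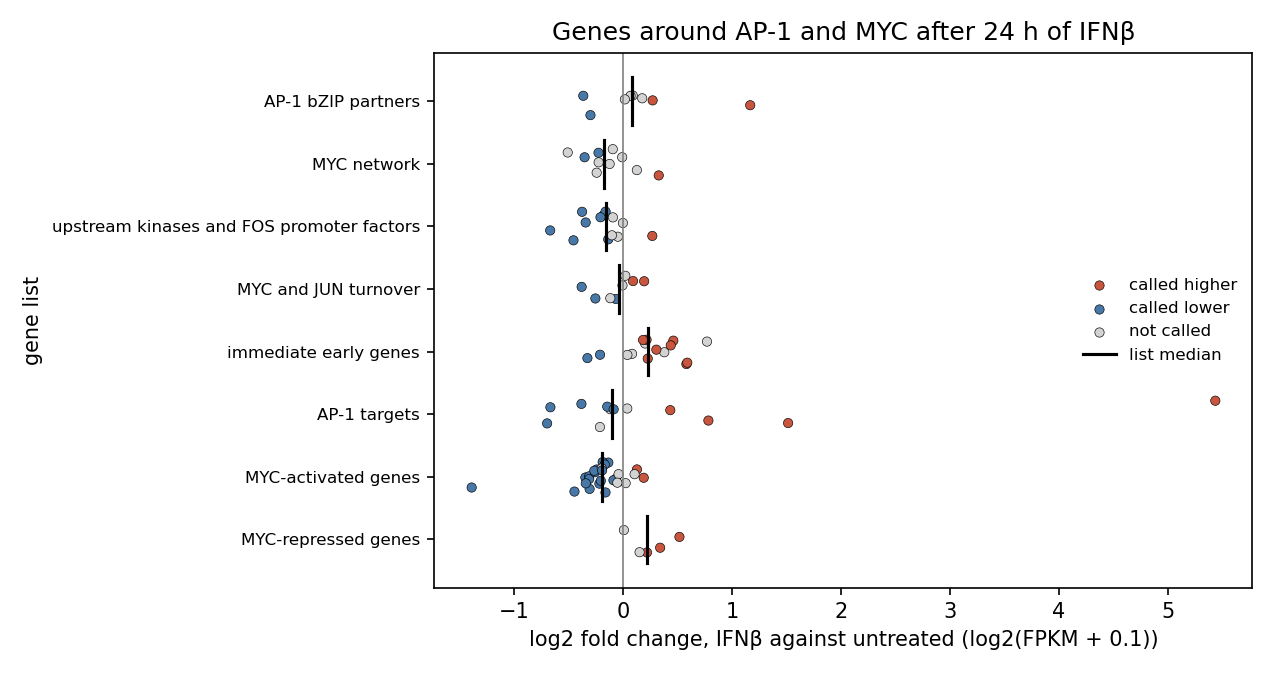
log2 fold change (IFNβ over untreated) of each tested gene in the gene lists around AP-1 and MYC, with 1 point per gene, called genes coloured by direction, and a line at the list median. Genes activated by MYC lie mostly below 0 with a median of -0.20 on the log2 scale, and the immediate early genes lie mostly above 0 with a median of 0.22.

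Of the 52 bZIP genes listed, 43 were tested. Among these 43, BATF2 ranked 1 by log2 fold change and JUN ranked 41. Among the 52 listed, JUN was rank 4 by mean level over the 6 libraries, at 63.3 FPKM, and FOSL2 was rank 6, at 38.05 FPKM. The genes added to the FOS, JUN and BATF families and their partners for this order were listed after the values of these families were seen.

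**Figure D5:**
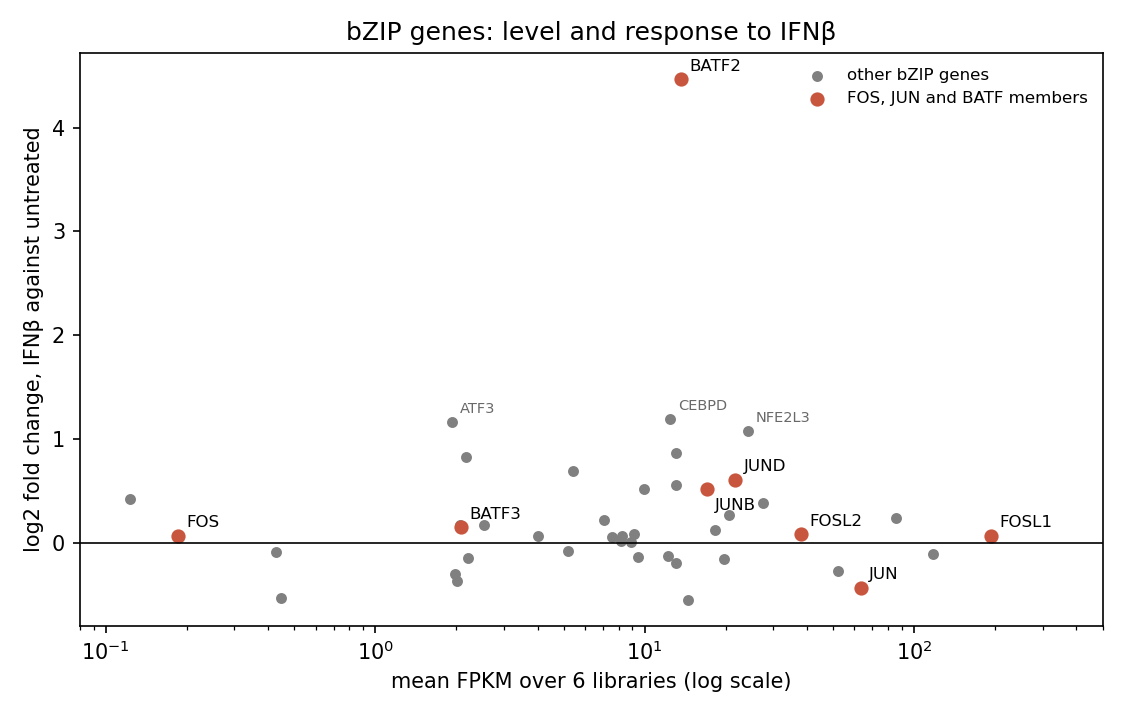
log2 fold change (IFNβ over untreated) against mean FPKM over the 6 libraries, on a log axis, for the 43 bZIP genes tested, with members of the FOS, JUN and BATF families labelled. BATF2 stands at 4.47 on the log2 scale, and the next highest gene is at 1.20.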

How the data were processed

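RNA of HT1080 cells was measured in 3 untreated and 3 IFNβ-treated libraries. Per the labels, reads were paired-end from an Illumina NovaSeq sequencer, and the submitters' processing notes name fastp, HISAT2, StringTie and GRCh38. FPKM per Ensembl gene and library were computed by the authors and deposited without pooling. The annotation, gene lengths and strandedness are not given in the sources used here. DESeq2, which the study's methods name, was not used, since the deposited unit is FPKM. Fragments recovered from the FPKM served an alternative fit.

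Of the gene IDs, 62639 were paired with a symbol. Locations came from GENCODE release 29 (GRCh38), which lacks 4436 of the IDs. FPKM steps gave whole fragments for 100% of the 35303 genes above 0 (tolerance 1e-05), adding up to 99.7% of each library's number. Of these genes, 16322 did so with their release 29 exon length. For the others the smallest whole length that gave whole fragments was taken, so the 100% is partly set by this search. Within groups, the recovered fragments of library pairs gave chi-square values of 1.78 to 3.39 per degree of freedom, more than counting error alone.

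Groups were compared with limma 3.58.1 (R 4.3.3, lmFit and eBayes with an intensity trend, two-sided) on FPKM with 0.1 added, log2-transformed, where the mean was at least 0.1 FPKM, adjusted by Benjamini-Hochberg over all 20716 genes. Adjusted p-values come from this fit unless another setting is named. A gene was called at an adjusted p under 0.05. With 3 against 3, an exact permutation test cannot give less than 0.1. The fit was also run on simulated fragments, with few genes changed and an equal extra spread for all genes, a simpler case than these data. Promoters came from RefSeq (GRCh38.p14), with windows for 7 of the 10 genes. Python 3.11.15 (pandas 2.3.3, numpy 2.4.6, matplotlib 3.10.9) did the rest.

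The genes and lists were chosen with earlier results of these data known. From each list, the 2 called genes with the largest change in each direction and a mean of at least 1 FPKM are named, with genes at 0 in all libraries, apart from genes that are not reported here. For BATF2 and JUN, the 3 genes with the most similar profiles are named. Alternatives were pseudocounts of 1 and 0.01, other filters, 3 rescalings, no trend, a replicate block, each library left out, an adjusted p under 0.01, and limma-voom on the recovered fragments.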

Additional observations from a re-analysis of the deposited data

How the results depend on the processing

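In all alternatives run, 3 or 4 of the AP-1 and MYC genes were called higher, 1 lower and 1 with a change of at least 1 on the log2 scale. In 16 refits, the log2 fold changes ranged from 3.70 (pseudocount 1) to 4.58 for BATF2, from 0.58 to 0.62 for JUND, from 0.45 to 0.56 for JUNB, from -0.45 to -0.42 for JUN and from -0.09 to -0.00 for MYC, and none of these 5 genes changed sides of the threshold. FOSL2 passed with limma-voom (0.08, adjusted p = 0.0306). FOS, with few fragments, turned to -0.088 under quantile normalization and ranged from -0.045 (without IFNβ replicate 3) to 0.210 when single libraries were left out, and the cause was not tested. The genes called lower numbered 5 with limma-voom against 2 in the MYC network, and 9 with quantile normalization against 5 among the other bZIP genes.

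The labels number the replicates alike in both groups, but deviations from the group means correlated between same-numbered libraries with r = 0.05, -0.02 and 0.12 over 11996 genes, so the numbers were not taken to pair them, and not every library correlated best with its own number. With the replicate block, 6069 genes were called in place of 6778, and 3 AP-1 genes were again higher and 1 lower. Of the genes named, CREB5 and TERT lost their calls under the block (adjusted p = 0.0543 and 0.0553), and no other gene named did. Depth limits FOS and FOSB, at 7 to 22 fragments per library.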

Other observations

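The other bZIP genes, a list drawn up after the values of the AP-1 genes were seen, comprised 32 genes, of which 27 were tested. Of these, 11 rose and 5 fell, with a median log2 fold change of 0.06. The share called higher was 40.7%, against 15.2% of all genes tested. The share called lower, 18.5%, was near the 17.5% of all genes tested. With the filter at a mean of 1 FPKM, 11 of 24 rose and 7 fell, beside 2741 and 3710 of 11996 genes. CEBPD, a bZIP factor of inflammatory and acute phase responses, rose from 7.503 ± 1.02 to 17.2 ± 0.871 FPKM (SD, n = 3 per group), which is 1.20 on the log2 scale (limma adjusted p = 0.000277). NFE2L3, a relative of NRF2, rose from 15.5 ± 0.799 to 32.8 ± 0.891 FPKM (SD, n = 3 per group), which is 1.08 on the log2 scale (limma adjusted p = 9.64e-06). CREB3L2, a membrane-bound factor of the secretory pathway, fell from 17.3 to 11.8 FPKM (log2 fold change -0.55, limma adjusted p = 0.000216). CEBPB, which pairs with CEBPD, fell from 56.9 to 47.1 FPKM (log2 fold change -0.27, limma adjusted p = 0.00103).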
